A study of Mus musculus with 9 samples.

Results

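Mitosis and kinetochore genes were examined in nascent RNA of mouse CD8+ T cells, lymphocytes that kill infected and tumour cells. The 43 genes were chosen by symbol, from the kinases and cyclins of mitotic entry to the proteins of kinetochore, spindle and cytokinesis, out of 37022 genes with a row in the deposited tables. Where a gene had several transcript rows, the one whose gene-body signal, averaged over all libraries, was highest was used. The study asked how nascent transcription changes under persistent stimulation, in connection with T cell exhaustion. There were 3 groups of 3 libraries: acute stimulation (Acute), chronic stimulation (Chronic), and chronic stimulation with inhibition of the kinase MEK (ChronicMEKi, called MEK-inhibited below). Cells of all 3 groups were given 5-ethynyl uridine at 0.2 mM over 30 minutes, which enters RNA as it is made, and the labelled RNA was then biotinylated and captured; a control with transcription blocked by actinomycin D, named in the protocol, is not among the 9 libraries. The manner and length of stimulation, the inhibitor and its dose, and the strain, genotype and age of the mice are not given in the sources used here. The labels do not say whether the 3 libraries of a group came from separate mice or cultures, so p-values measure only the spread between these libraries, which may be technical.

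Cells enter mitosis when the kinase Cdk1, bound to A- and B-type cyclins, is switched on by Cdc25 phosphatases. Kinetochores are protein assemblies on each centromere that hold spindle microtubules, and a checkpoint delays anaphase until every kinetochore is attached. Most of these genes are transcribed late in the cell cycle, through promoter elements shared by many of them, and a T cell that divides after activation makes use of the whole set.

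Signal here is the deposited value after scaling each library by a trimmed mean of log ratios, and it has no unit of reads. All 43 genes passed the filter on low values (50 or more in 3 or more libraries), and lay on 14 chromosomes with annotated spans of 4.452 to 67.688 kb on mm10, the build the submitters name. Summed deposited gene-body signal ranged from 48601757 to 52216192 per library, and the depth in reads is unknown. The 4 ribosomal RNA-like genes took 19.1% to 22.3% of it in acute, 34.2% to 40.6% in chronic and 29.0% to 36.1% in MEK-inhibited libraries, so their share moved with the groups; their part in the results was not tested. All 7 T cell markers were detected: Cd8a and Cd8b1 of CD8 T cells, and Cd3d, Cd3e, Cd3g, Cd2 and Lck, which CD4 T cells also express. Their summed signal was 25113 to 29073 in acute, 17020 to 18045 in chronic and 21499 to 23339 in MEK-inhibited libraries. In the same order Cd8a ranged over 3653 to 4340, 832 to 1171 and 2580 to 3064. Cd8b1 ranged over 1625 to 2089, 1122 to 1374 and 1878 to 2309. The ranges of Cd3d and Cd3g overlapped between all groups. The sums of 5 B cell markers (534 to 565, 189 to 219, and 160.4 to 435), 5 myeloid markers (161 to 227, 112 to 171, and 90.5 to 218), 3 dendritic cell markers (205 to 267, 243 to 315, and 156 to 230.0) and 2 NK cell markers (7.87 to 19.2, 19.1 to 34.9, and 32.2 to 54.2) were far smaller, each range in the order acute, chronic and MEK-inhibited. Of the myeloid markers Lyz2 and Cd14 were at or near 0, while Adgre1 reached 122 in acute libraries. Csf1r and Itgam reached 107 and 49.2 in MEK-inhibited libraries. Of the NK cell markers Ncr1 was at 0 in every MEK-inhibited library. Klrb1c ranged over 5.24 to 12.8 in acute, 19.1 to 32.7 in chronic and 32.2 to 54.2 in MEK-inhibited libraries. The 3 erythroid markers summed to at most 29.7. The 2 CD4 T cell markers with a row, Cd4 and Zbtb7b, moved in opposite ways: Cd4 ranged over 383 to 496, 144 to 344 and 101 to 141, and Zbtb7b over 657 to 921, 911 to 1056 and 1588 to 1911, with sums of 1040 to 1367, 1054 to 1383 and 1729 to 2016. The part of other cells in the results was not tested.

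Between chronic and acute libraries, gene-body signal of 30 of the 43 genes rose and that of none fell, against 18% of all 15942 genes tested that rose and 15.9% that fell; on library totals the count was 11 higher and 4 lower. The largest rises were those of Spc24, Ttk and Mad2l1, which serve the kinetochore and its checkpoint, with log2 fold changes of 1.70, 1.32 and 1.17. From chronic to MEK-inhibited libraries 19 rose and none fell, against 9.93% and 7.65% of all genes, led by Kifc1, Cdc25b and Ccnb2 at 1.07, 0.99 and 0.97. Between MEK-inhibited and acute libraries 37 rose and none fell, against 14.4% and 11.5% of all genes, led by Spc24 and Ttk, both at 1.65. The calls are limma's, at a Benjamini-Hochberg adjusted p under 0.05 over all genes tested; at an unadjusted p under 0.05 the members higher numbered 33, 25 and 40, and none was lower in any of the comparisons. The median log2 fold change of the members was 0.57, 0.41 and 0.86, beside medians over all genes of -0.016, 0.037 and 0.0033. Fold changes are differences of log2(signal + 5), which understates those of weak genes.

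The members' changes are relative to the trimmed mean of all genes, and the choice of scaling set how many were called. Scaled to library totals, the median of all genes moved by -0.48 between chronic and acute libraries, by 0.10 between MEK-inhibited and chronic, and by -0.38 between MEK-inhibited and acute ones. The members' median between chronic and acute libraries was then 0.083, with 6.87% of all genes higher and 42.9% lower. On the deposited scale, without any further scaling, 12 members were higher and 4 lower, with a median of 0.099, beside 7.11% and 42.1% of all genes. The members called lower on both scales were Top2a, Cenpf, Cdc25b and Ccnb2. With totals taken without the ribosomal RNA-like rows, 23 were higher and Cdc25b alone lower, beside 13.1% and 23.6% of all genes. The distance of the members' median from that of all genes was 0.58 to 0.59 in this comparison under all 5 scalings tried, 0.38 between MEK-inhibited and chronic libraries and 0.85 to 0.86 between MEK-inhibited and acute ones. A scaling shifts every gene of a library alike, so this distance was bound to stay the same apart from the pseudocount. The comparisons share libraries, so their values are set side by side and not correlated. In bulk RNA, fewer cells passing through mitosis and less RNA per cell cannot be told apart.

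**Figure D1:**
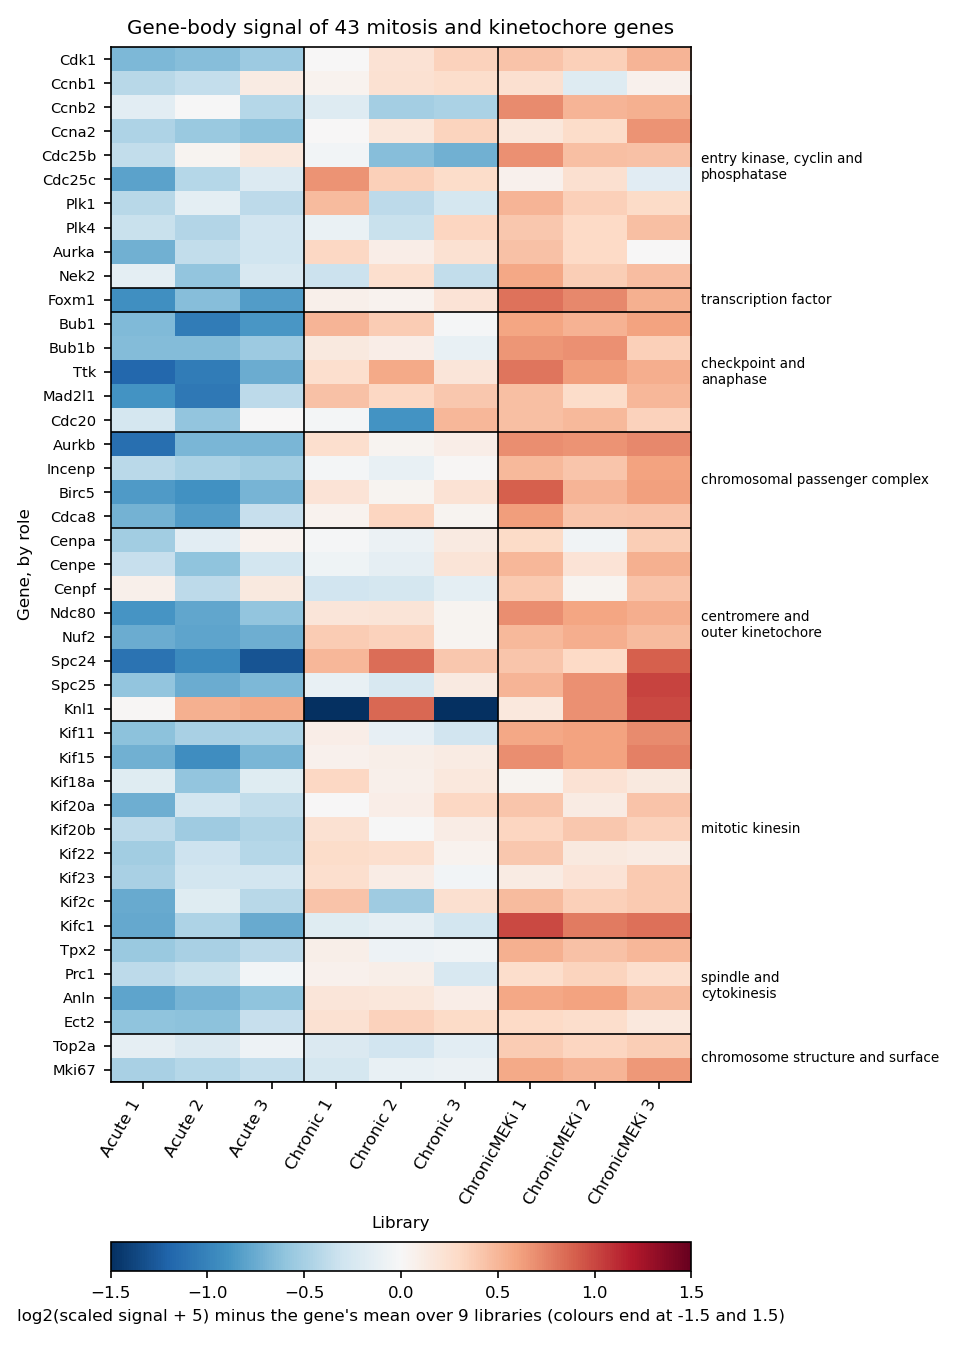
Each row is 1 of the 43 genes, by role, and each column a library; colour gives log2(scaled signal + 5) minus the gene's mean over 9 libraries, so red is above and blue below that mean. Acute libraries are mostly blue and MEK-inhibited ones mostly red, on the trimmed-mean scaling; Knl1 and Cdc20 vary most among chronic libraries, and on library totals 4 genes are lower in chronic than in acute libraries.

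The libraries of a group lay together. The median over members of the distance from each gene's own mean was -0.59, -0.54 and -0.40 in acute, 0.072, 0.085 and 0.10 in chronic and 0.49, 0.40 and 0.47 in MEK-inhibited libraries. The 3 groups did not overlap in this median. Of the 43 genes, 2, 2 and 6 were above their own mean in the acute libraries, 29, 26 and 28 in the chronic ones, and 43, 41 and 42 in the MEK-inhibited ones. The members' share of gene-body signal outside the ribosomal RNA-like rows came to 0.184% ± 0.0163 in acute, 0.215% ± 0.00897 in chronic and 0.298% ± 0.00407 in MEK-inhibited libraries (mean ± SD, n = 3).

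Group means rose from acute through chronic to MEK-inhibited libraries in 33 genes. In 5 genes the chronic mean was the highest, and in 5 it was below the acute mean. In 19 genes the order held for single libraries, with each acute library below each chronic one and each chronic below each MEK-inhibited one. Of these 19, Anln, Aurkb, Birc5, Bub1b, Cenpe, Foxm1, Incenp, Kif11, Kif15, Kifc1, Mki67, Ndc80, Spc25 and Tpx2 passed the test in all 3 comparisons. Bub1, Cdca8, Cdk1, Kif20b and Nuf2 were ordered in the same way but were not called between MEK-inhibited and chronic libraries. Groups did not overlap, with the second-named lower, for 30 members between chronic and acute libraries (22.4% of all genes), 25 between MEK-inhibited and chronic (17.8%) and 39 between MEK-inhibited and acute ones (22.4%). Cdc25c was the 1 member lower without overlap, in MEK-inhibited over chronic libraries (14.4% of all genes), and none was lower without overlap in the other comparisons (21.9% and 19.6% of all genes).

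Promoters of the members were compared because the genes moved together. RefSeq promoter windows of 300 bases (250 before and 50 after the transcription start, build GRCm38.p6) were matched by symbol for 35 of 43 members. For 34 the window's start lay within 200 bases of the start of the row used, a limit set after the distances were seen, and at most 169 bases from it. Kif2c was left out by that limit, and Aurkb, Ccna2, Cdc25c, Foxm1, Incenp, Kif20a, Spc24 and Tpx2 had no window. The motifs searched, on both strands, were TTTGAA and TTCGAA, forms of the cell cycle genes homology region (CHR) that the MuvB complex binds; CCAAT, bound by NF-Y; and TTTGGCGC and TTTCCCGC, forms of the E2F site. A match is a run of letters and says nothing of binding.

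The members' windows were 1 per gene, chosen by distance from the row used, and all windows of the reference were taken without that choice. Of the 34 windows, 26 held a CHR match (76.5%), against 19.2% of all 32851 windows of that length. A CCAAT was held by 24 (70.6% against 37.4%), at least 2 of them by 17 (against 11.5% of all windows), and both CHR and CCAAT by 21 (61.8% against 7.52%). An E2F match was held by Kif15 and Kif18a (5.88% against 1.56%). In 25 windows (73.5%) a CHR match lay in the last 100 bases, from 50 before to 50 after the start, against 5.31% of all windows; this stretch was chosen after the positions were seen. There were 38 CHR, 52 CCAAT and 2 E2F matches in the 34 windows, and the first base of a CCAAT match lay at a median of 55 bases before the start. In Cdca8, 1 CHR match and 1 CCAAT match overlapped. Birc5, Mad2l1, Nuf2 and Plk4 held none of the motifs, as did 50.1% of all windows.

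The promoters below show the arrangement of these elements in genes that were called and in genes called in none of the comparisons. They were picked after the matches were seen. Each runs 5′ to 3′ on the gene's strand from 100 bases before the start to 20 bases past it (120 bases), with CHR and CCAAT matches of either strand in capitals (TTCAAA and ATTGG are the reverse-strand forms). Cdk1 (chr10:69352893-69353012), Ccnb2 (chr9:70421535-70421654), Cdc20 (chr4:118437324-118437443), Kifc1 (chr17:33890614-33890733) and Top2a (chr11:99024170-99024289) are on the minus strand and hold both elements. Kif11 (chr19:37376282-37376401), on the plus strand, holds both as well. Ccnb1 (chr13:100786467-100786586) holds CCAAT alone and Nuf2 (chr1:169531445-169531564) neither, both on the minus strand.
Cdk1: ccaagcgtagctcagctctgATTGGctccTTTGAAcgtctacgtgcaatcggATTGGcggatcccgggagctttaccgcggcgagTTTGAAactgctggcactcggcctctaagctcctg
Ccnb2: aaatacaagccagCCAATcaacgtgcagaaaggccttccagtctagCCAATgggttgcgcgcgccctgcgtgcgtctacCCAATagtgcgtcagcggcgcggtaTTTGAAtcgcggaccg
Cdc20: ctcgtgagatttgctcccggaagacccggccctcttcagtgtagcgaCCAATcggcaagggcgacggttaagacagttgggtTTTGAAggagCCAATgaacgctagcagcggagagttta
Kif11: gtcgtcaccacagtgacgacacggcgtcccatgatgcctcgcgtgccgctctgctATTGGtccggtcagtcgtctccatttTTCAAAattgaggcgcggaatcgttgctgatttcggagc
Kifc1: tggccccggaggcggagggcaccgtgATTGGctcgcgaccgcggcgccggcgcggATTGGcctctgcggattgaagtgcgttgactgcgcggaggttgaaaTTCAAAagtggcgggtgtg
Top2a: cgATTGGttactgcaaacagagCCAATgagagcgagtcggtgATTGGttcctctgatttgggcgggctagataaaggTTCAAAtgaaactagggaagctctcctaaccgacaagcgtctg
Ccnb1: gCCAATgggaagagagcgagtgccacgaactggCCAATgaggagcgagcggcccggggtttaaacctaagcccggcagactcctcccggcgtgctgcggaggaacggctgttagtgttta
Nuf2: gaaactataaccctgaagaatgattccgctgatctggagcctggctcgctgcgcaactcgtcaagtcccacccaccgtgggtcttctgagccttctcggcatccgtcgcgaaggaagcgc

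The Ccnb2 promoter carries 3 CCAAT matches in this stretch before a CHR match just past the start, and Top2a has 3 CCAAT matches before its CHR match. Both genes rose between MEK-inhibited and chronic libraries and were not called between chronic and acute ones, while Cdk1, with both elements, had the reverse pattern of calls. Nuf2, with neither, rose between chronic and acute libraries. Of 26 members that held a CHR match, 17 rose between chronic and acute libraries (median log2 fold change 0.52), as did 5 of the 8 that held none (0.45). In the step from chronic to MEK-inhibited libraries the counts were 12 of 26 (0.46) and 3 of 8 (0.33), and between MEK-inhibited and acute libraries 22 of 26 (0.80) and 7 of 8 (0.81). The difference between members with and without a match was not tested.

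**Figure D2:**
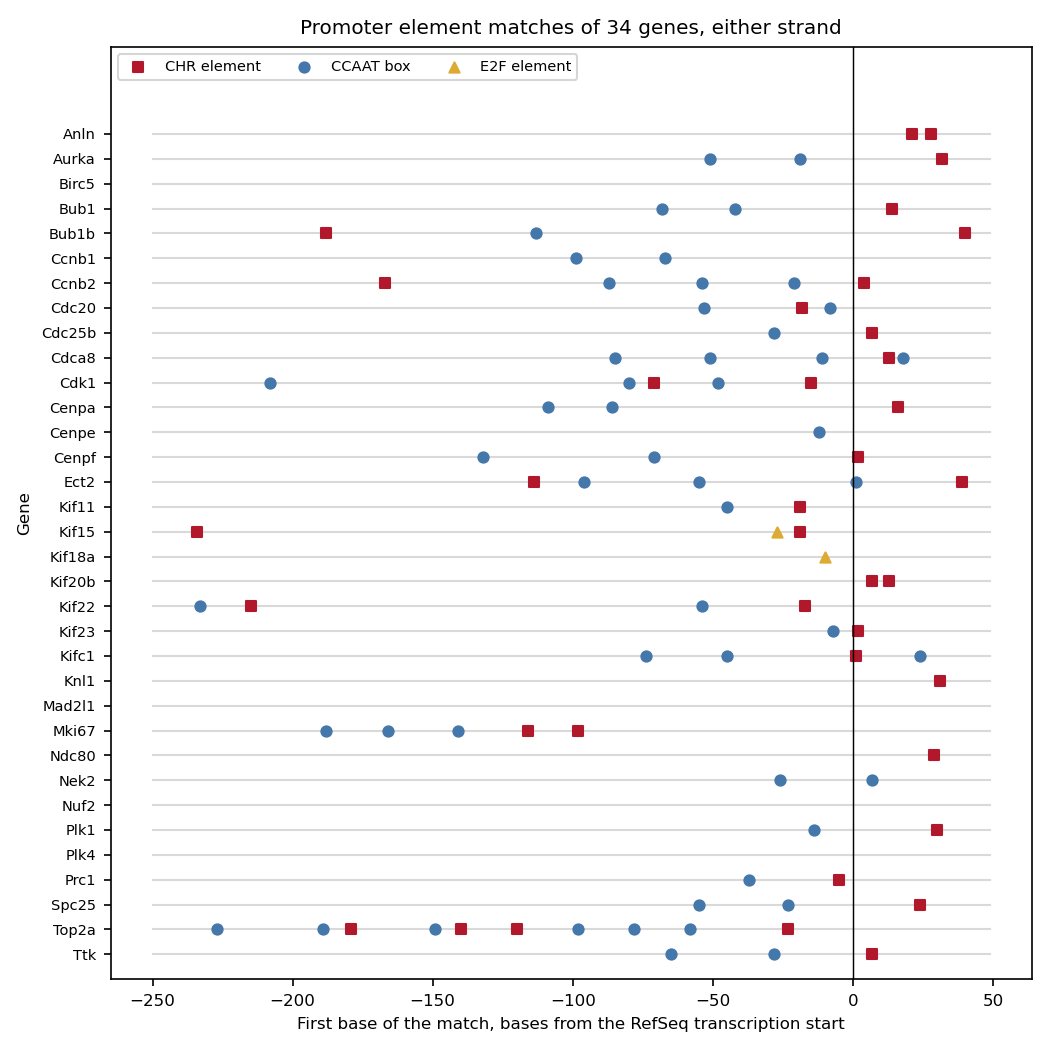
Positions of CHR (squares), CCAAT (circles) and E2F (triangles) matches on either strand in the promoter windows of 34 members; the x axis gives the first base of a match in bases from the RefSeq transcription start, and each grey line is a window. The 25 windows with a CHR match in the last 100 bases show as squares near the start, with CCAAT circles mostly to their left.

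Among 10 kinases, cyclins and phosphatases of mitotic entry, 4 rose between chronic and acute libraries (Cdk1, Ccna2, Cdc25c and Aurka), beside 18% of all genes. Between MEK-inhibited and chronic libraries 3 rose (Ccnb2, Cdc25b and Nek2), beside 9.93% of all genes. Between MEK-inhibited and acute libraries 8 rose, beside 14.4%. On library totals Cdk1 and Ccna2 kept the last of these calls and 6 lost it, with 0.33 for Aurka, 0.40 for Ccnb2, 0.20 for Cdc25b, 0.42 for Nek2, 0.32 for Plk1 and 0.35 for Plk4 (adjusted p 0.0808 to 0.516). Cdk1 (chromosome 10, 69335146 to 69352938), the kinase that drives entry into mitosis, had signals of 1901, 1947 and 2074 in acute, 3056, 3517 and 3858 in chronic and 4093, 3878 and 4317 in MEK-inhibited libraries. The MEK-inhibited libraries were all above the chronic and these all above the acute ones, with log2 fold changes of 0.81 (SE 0.10, limma adjusted p 6.21e-06) for chronic over acute and 0.24 (SE 0.10, limma adjusted p 0.124) for MEK-inhibited over chronic libraries. The second difference was called without chronic replicate 3 (0.32, adjusted p 0.0375) and on the deposited scale (0.37, adjusted p 0.0438). Ccna2, which encodes the A-type cyclin of S phase and early mitosis, had a log2 difference of 0.72 (SE 0.13, limma adjusted p 0.000317) between chronic and acute libraries and 0.20 (adjusted p 0.358) between MEK-inhibited and chronic ones. The first was 0.23 on library totals (limma adjusted p 0.168).

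The B-type cyclins gave different calls. Ccnb1 (chromosome 13, 100778650 to 100786570), which encodes the main cyclin partner of Cdk1 in mitosis, had signals of 786, 814 and 1142 in acute, 1086, 1229 and 1257 in chronic and 1236, 914 and 1099 in MEK-inhibited libraries. All 3 groups overlapped, and the log2 fold changes were 0.40 (SE 0.16, limma adjusted p 0.0667), -0.14 (SE 0.16, limma adjusted p 0.632) and 0.25 (adjusted p 0.283) in the order chronic over acute, MEK-inhibited over chronic, MEK-inhibited over acute; without acute replicate 3 the first was called (0.56, adjusted p 0.0143). Ccnb2 (chromosome 9, 70407692 to 70421547), the other B-type cyclin, had signals of 306, 340.2 and 253 in acute, 299, 238 and 245 in chronic and 563, 488 and 496 in MEK-inhibited libraries. Chronic and acute libraries overlapped, and all MEK-inhibited libraries were above both, with -0.19 (SE 0.21, limma adjusted p 0.511) for chronic over acute and 0.97 (SE 0.21, limma adjusted p 0.00290) for MEK-inhibited over chronic libraries. On library totals Ccnb2 was called lower in chronic than in acute libraries (-0.68, adjusted p 0.0214). Its rise of 0.78 from acute to MEK-inhibited libraries (adjusted p 0.0104) was not called without acute replicate 3 or MEK-inhibited replicate 1 (adjusted p 0.0755 and 0.0765).

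The Cdc25 phosphatases, which activate Cdk1, also gave different calls. Cdc25b (chromosome 2, 131186949 to 131198495) had signals of 439.9, 585 and 632 in acute, 550.1, 363 and 343 in chronic and 915, 777 and 773 in MEK-inhibited libraries. The MEK-inhibited libraries were all above the rest, and acute and chronic libraries overlapped, with -0.41 (SE 0.20, limma adjusted p 0.134) for chronic over acute and 0.99 (SE 0.20, limma adjusted p 0.00187) for MEK-inhibited over chronic libraries. Without chronic replicate 1, and on library totals, Cdc25b was called lower in chronic than in acute libraries (-0.62 and -0.90). Its call between MEK-inhibited and acute libraries (0.58, adjusted p 0.0448) was lost when any of the 6 libraries of those groups was left out (adjusted p 0.0634 to 0.273). Cdc25b overlaps Spef1 on the opposite strand, and whether counting used strand is not stated. Cdc25c had signals of 184, 238 and 279 in acute, 517, 415 and 393 in chronic and 339, 382 and 286 in MEK-inhibited libraries. It was the member highest in chronic libraries without overlap on either side, with 0.92 (SE 0.23, limma adjusted p 0.00461) against acute libraries and -0.39 (SE 0.23, limma adjusted p 0.290) for MEK-inhibited over chronic ones, so the second difference was not called; on library totals the first was 0.43 (adjusted p 0.170).

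Of the Polo-like kinases, Plk1 (chromosome 7, 122159439 to 122169873), which acts at centrosomes, kinetochores and the midbody, had signals of 715, 859 and 723 in acute, 1330.2, 724 and 792 in chronic and 1366, 1219.5 and 1161 in MEK-inhibited libraries. Chronic replicate 1 was as high as the MEK-inhibited libraries, while the other 2 chronic libraries were within the acute range. Its log2 fold changes were 0.26 (SE 0.19, limma adjusted p 0.312) for chronic over acute, 0.44 (SE 0.19, limma adjusted p 0.123) for MEK-inhibited over chronic, and 0.70 (SE 0.19, limma adjusted p 0.00959) for MEK-inhibited over acute libraries. Without chronic replicate 1 the middle one was called (0.71, adjusted p 0.00413), and the last was lost without acute replicate 1, acute replicate 3 or MEK-inhibited replicate 1 (adjusted p 0.0579 to 0.0673). Plk4, the kinase of centriole duplication, was called only between MEK-inhibited and acute libraries under the scaling used (0.74, adjusted p 0.000844). On library totals that call was lost (0.35, adjusted p 0.0808) and the one between MEK-inhibited and chronic libraries was made (0.53, adjusted p 0.0219). Leaving out chronic replicate 2 gave a call between chronic and acute libraries (0.47, adjusted p 0.0220), and leaving out chronic replicate 3 one between MEK-inhibited and chronic libraries (0.60, adjusted p 0.00295). Aurka, the Aurora kinase of centrosomes and spindle poles, rose by 0.68 between chronic and acute libraries (adjusted p 0.00109), and its fold change was 0.035 between MEK-inhibited and chronic ones (adjusted p 0.914). Its rise from acute to chronic libraries was 0.19 on library totals (limma adjusted p 0.372). Nek2, a kinase of centrosome separation, had log2 fold changes of 0.18 and 0.62 (adjusted p 0.521 and 0.0386), and the second call was lost without any of 7 libraries, those other than acute replicate 2 and chronic replicate 2 (adjusted p 0.0625 to 0.183).

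Foxm1 (chromosome 6, 128362967 to 128376146) encodes the forkhead transcription factor that activates many genes of mitosis, and it overlaps Tex52 on its own strand. Its signals were 597, 724 and 631 in acute, 1192, 1176 and 1309.6 in chronic and 2002, 1864 and 1645 in MEK-inhibited libraries. The groups did not overlap, and each step was called, by 0.91 (SE 0.13, limma adjusted p 2.91e-05) from acute to chronic and 0.58 (SE 0.13, limma adjusted p 0.00439) from chronic to MEK-inhibited libraries. Between MEK-inhibited and acute libraries its rise of 1.49 was 2.81-fold. The step from chronic to MEK-inhibited libraries was lost without MEK-inhibited replicate 1 (0.46, adjusted p 0.0680).

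Of 5 genes of the spindle checkpoint and anaphase, Bub1, Bub1b, Ttk and Mad2l1 rose between chronic and acute libraries and between MEK-inhibited and acute ones. In these comparisons 18% and 14.4% of all genes rose. Bub1b alone was called between MEK-inhibited and chronic libraries, where 9.93% of all genes rose. Ttk (chromosome 9, 83834690 to 83872389), the kinase also called Mps1 that starts checkpoint signalling, had signals of 388, 423 and 523 in acute, 1048, 1307 and 1002 in chronic and 1547, 1369.7 and 1292 in MEK-inhibited libraries. The lowest chronic library lay well above the highest acute one, and chronic replicate 2 lay among the MEK-inhibited libraries. The log2 fold changes were 1.32 (SE 0.16, limma adjusted p 3.15e-06), 0.33 (SE 0.16, limma adjusted p 0.180) and 1.65 (SE 0.16, limma adjusted p 3.34e-07) for chronic over acute, MEK-inhibited over chronic and MEK-inhibited over acute libraries. Mad2l1 (chromosome 6, 66535390 to 66547220), which encodes the checkpoint protein that holds Cdc20 inactive, had signals of 403, 357 and 576 in acute, 1026, 939 and 1004 in chronic and 1033, 917 and 1069 in MEK-inhibited libraries. Chronic and MEK-inhibited libraries overlapped and lay above all acute ones, with 1.17 (SE 0.17, limma adjusted p 3.64e-05) for chronic over acute and 0.022 (SE 0.17, limma adjusted p 0.959) for MEK-inhibited over chronic libraries. Bub1, a checkpoint kinase of the kinetochore, rose by 1.15 (adjusted p 2.49e-05) from acute to chronic libraries and had a log2 fold change of 0.28 (adjusted p 0.280) from chronic to MEK-inhibited ones.

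Bub1b (chromosome 2, 118598211 to 118641591), which encodes the checkpoint protein BubR1, had signals of 909, 911 and 980.5 in acute, 1578, 1537 and 1323 in chronic and 2259, 2311 and 1836 in MEK-inhibited libraries. The groups did not overlap, with 0.66 (SE 0.13, limma adjusted p 0.000492) for chronic over acute and 0.52 (SE 0.13, limma adjusted p 0.00644) for MEK-inhibited over chronic libraries; the first was 0.17 on library totals (adjusted p 0.406) and the second lost its call without MEK-inhibited replicate 1 (0.42, adjusted p 0.0689). Cdc20 (chromosome 4, 118432901 to 118437352) encodes the activator of the anaphase-promoting complex that the checkpoint restrains, and it overlaps Elovl1 on the opposite strand. Its signals were 448, 356 and 539 in acute, 526, 287 and 759.9 in chronic and 739, 756 and 687 in MEK-inhibited libraries. The chronic libraries ran from below all acute to the top of the MEK-inhibited ones, a coefficient of variation of 45.1%, and the fold changes were 0.14 (SE 0.27, limma adjusted p 0.731) for chronic over acute and 0.58 (SE 0.27, limma adjusted p 0.176) for MEK-inhibited over chronic libraries. Every MEK-inhibited library was above every acute one, at 0.71 (adjusted p 0.0662), which was called without chronic replicate 2 or 3 (adjusted p 0.0137 and 0.0224). Without chronic replicate 3 the difference between MEK-inhibited and chronic libraries was also called (0.89, adjusted p 0.0189).

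The chromosomal passenger complex corrects faulty attachments of microtubules and later steers cytokinesis. Its 4 genes Aurkb, Incenp, Birc5 and Cdca8 all rose between chronic and acute libraries, although Incenp turned to -0.066 on library totals and -0.050 on the deposited scale, neither called. Between MEK-inhibited and chronic libraries 3 of the 4 were called, and between MEK-inhibited and acute ones all 4. Over all genes 18%, 9.93% and 14.4% rose in the 3 comparisons. Aurkb (chromosome 11, 69045647 to 69051664), the kinase of the complex, had signals of 401, 545 and 548 in acute, 1055, 909 and 949 in chronic and 1435, 1408 and 1459 in MEK-inhibited libraries. The groups stood apart at each step, with 0.97 (SE 0.15, limma adjusted p 6.28e-05) for chronic over acute, 0.56 (SE 0.15, limma adjusted p 0.0137) for MEK-inhibited over chronic and 1.53 (SE 0.15, limma adjusted p 4.89e-07) for MEK-inhibited over acute libraries. The middle call was lost without chronic replicate 2, MEK-inhibited replicate 1 or MEK-inhibited replicate 3 (adjusted p 0.0534 to 0.0843). Incenp, the scaffold, had log2 fold changes of 0.42 and 0.55 (adjusted p 0.00183 and 0.000381) in the first 2 comparisons. Birc5, which encodes survivin, had log2 fold changes of 0.97 and 0.52 (adjusted p 3.05e-05 and 0.0154), the second lost without chronic replicate 2 or MEK-inhibited replicate 1 (adjusted p 0.0682 and 0.190). Cdca8, which encodes borealin, had log2 fold changes of 0.77 (adjusted p 0.000225) and 0.35 (adjusted p 0.0894), and the second was called on the deposited scale (0.48, adjusted p 0.0425). The first was 0.28 on library totals (limma adjusted p 0.160).

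**Figure D3:**
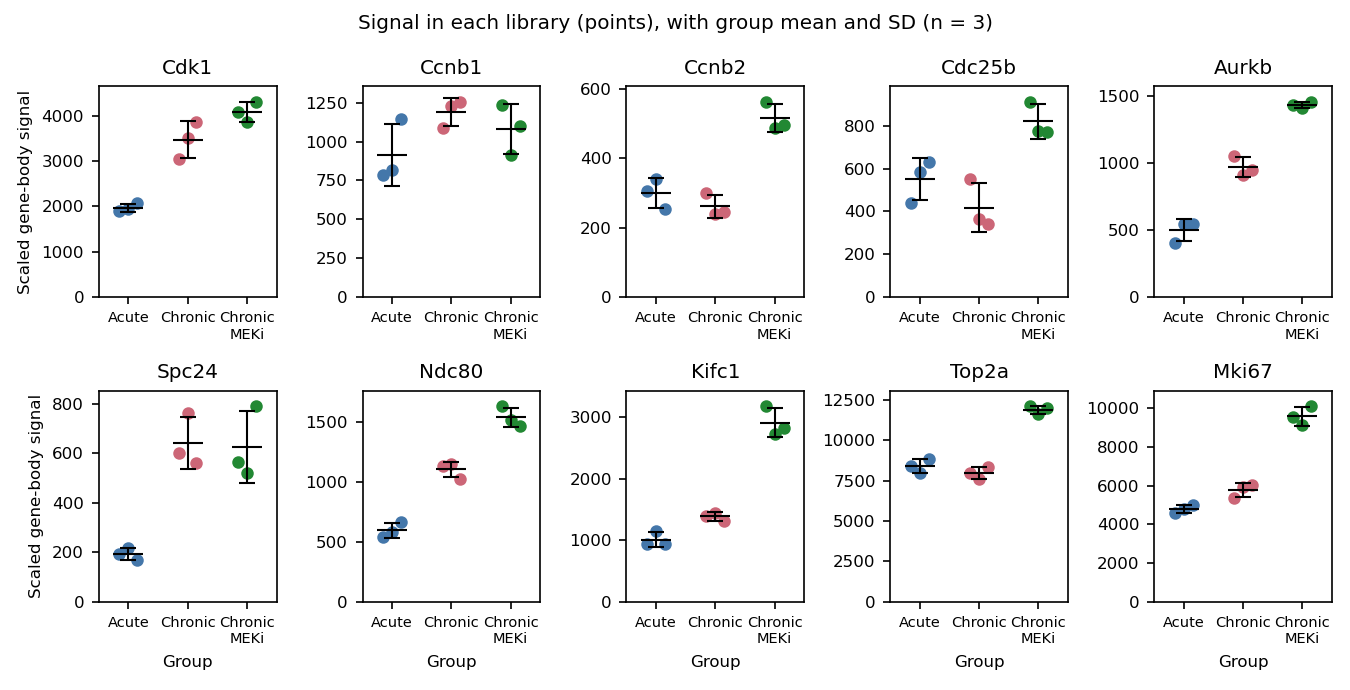
Scaled gene-body signal of 10 members, chosen after their values were seen; points are libraries, bars the group mean and SD (n = 3), and each axis starts at 0. Cdk1, Aurkb and Ndc80 step up at each stage. The second step was not called for Cdk1, and for Aurkb and Ndc80 its call was lost on leaving out any 1 of 3 libraries. Spc24 is level between chronic and MEK-inhibited libraries, Ccnb2, Cdc25b, Kifc1 and Top2a stand highest in MEK-inhibited libraries, and the groups of Ccnb1 overlap. On library totals Ccnb2, Cdc25b and Top2a are called lower in chronic than in acute libraries, and Kifc1 and Mki67 change sign there without a call.

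Among 8 genes of the centromere and outer kinetochore, 5 rose between chronic and acute libraries (Cenpe, Ndc80, Nuf2, Spc24 and Spc25), 4 between MEK-inhibited and chronic ones (Cenpe, Cenpf, Ndc80 and Spc25) and 5 between MEK-inhibited and acute ones. The shares of all genes that rose were 18%, 9.93% and 14.4%. The NDC80 complex, which binds the microtubule, is made of the products of Ndc80, Nuf2, Spc24 and Spc25, and all 4 genes rose from acute to chronic libraries. Spc24 (chromosome 9, 21755442 to 21760303) had signals of 193, 216 and 169 in acute, 599, 762 and 562 in chronic and 564, 521 and 788 in MEK-inhibited libraries. All chronic and MEK-inhibited libraries were above all acute ones by a wide gap, and the former overlapped each other, with 1.70 (SE 0.21, limma adjusted p 5.35e-06) for chronic over acute, -0.048 (SE 0.21, limma adjusted p 0.922) for MEK-inhibited over chronic and 1.65 (SE 0.21, limma adjusted p 1.14e-05) for MEK-inhibited over acute libraries. Ndc80 (chromosome 17, 71496100 to 71526857) had signals of 542, 582 and 662 in acute, 1135, 1145 and 1027 in chronic and 1629, 1512 and 1469 in MEK-inhibited libraries. The groups did not overlap, with 0.89 (SE 0.13, limma adjusted p 4.41e-05) for chronic over acute and 0.48 (SE 0.13, limma adjusted p 0.0180) for MEK-inhibited over chronic libraries; the first had an adjusted p of 0.0529 on library totals, and the second was lost without chronic replicate 3, MEK-inhibited replicate 1 or MEK-inhibited replicate 2 (adjusted p 0.0525 to 0.146). Spc25 had log2 fold changes of 0.60 (adjusted p 0.0132) and 0.81 (adjusted p 0.00285). The first was lost without chronic replicate 3 (adjusted p 0.0547) and was 0.11 on library totals (limma adjusted p 0.639). Nuf2 had log2 fold changes of 1.02 (adjusted p 3.50e-06) and 0.24 (adjusted p 0.204).

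Cenpe (chromosome 3, 135212537 to 135273611) encodes the kinetochore motor that moves chromosomes to the spindle equator. Its signals were 1156, 967 and 1209 in acute, 1401, 1339 and 1679 in chronic and 2069.9, 1693 and 2128 in MEK-inhibited libraries. The groups did not overlap, with 0.41 (SE 0.14, limma adjusted p 0.0272) for chronic over acute, 0.41 (SE 0.14, limma adjusted p 0.0428) for MEK-inhibited over chronic and 0.82 (SE 0.14, limma adjusted p 0.000173) for MEK-inhibited over acute libraries. The first call was lost without acute replicate 1, acute replicate 2 or chronic replicate 3 (adjusted p 0.0507 to 0.108) and the second without any of 7 libraries, those other than chronic replicate 3 and MEK-inhibited replicate 2 (adjusted p 0.0667 to 0.244); on library totals and the deposited scale the first turned to -0.083 and -0.066, not called. Cenpf, a large protein of the outer kinetochore, had log2 fold changes of -0.17 and 0.52 (adjusted p 0.466 and 0.0486); the second call was lost without any of 7 libraries, those other than acute replicate 2 and MEK-inhibited replicate 2 (adjusted p 0.0598 to 0.234), and on library totals Cenpf was called lower in chronic than in acute libraries (-0.66). Cenpa, the histone H3 variant of centromeres, had log2 fold changes of 0.22, 0.19 and 0.41 (adjusted p 0.306, 0.474 and 0.0632) and was called in none; without MEK-inhibited replicate 2 the last was called (0.52, adjusted p 0.0300).

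Knl1, the scaffold that carries checkpoint proteins on the kinetochore, gave different values by the transcript row used, and was singled out after its values were seen. Its row with the most signal (chromosome 2, 119047119 to 119104121) had signals of 5645, 8095 and 8291 in acute, 1561, 10183 and 1413 in chronic and 6210.4, 8971 and 11085 in MEK-inhibited libraries. Chronic replicates 1 and 3 were the lowest of the 9 and chronic replicate 2 the second highest, a coefficient of variation of 114% in the chronic group, and no comparison was called. Without chronic replicate 2 the same row was called lower in chronic than in acute libraries (-2.28, adjusted p 7.75e-05) and higher in MEK-inhibited than in chronic ones (2.51, adjusted p 8.79e-05). A shorter row that ends before the 3′ part of the gene (chromosome 2, 119047150 to 119072919) had signals of 642, 646 and 443 in acute, 592, 903 and 559 in chronic and 1118, 1108 and 1172 in MEK-inhibited libraries. In that row the MEK-inhibited libraries were above all others, and the log2 fold changes were 0.23 (SE 0.19, limma adjusted p 0.383), 0.76 (SE 0.19, limma adjusted p 0.00985) and 0.99 (SE 0.19, limma adjusted p 0.000854) for chronic over acute, MEK-inhibited over chronic and MEK-inhibited over acute libraries. The rows begin close together and differ in their annotated 3′ end, and what the added signal of the longer one comes from was not tested.

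**Figure D4:**
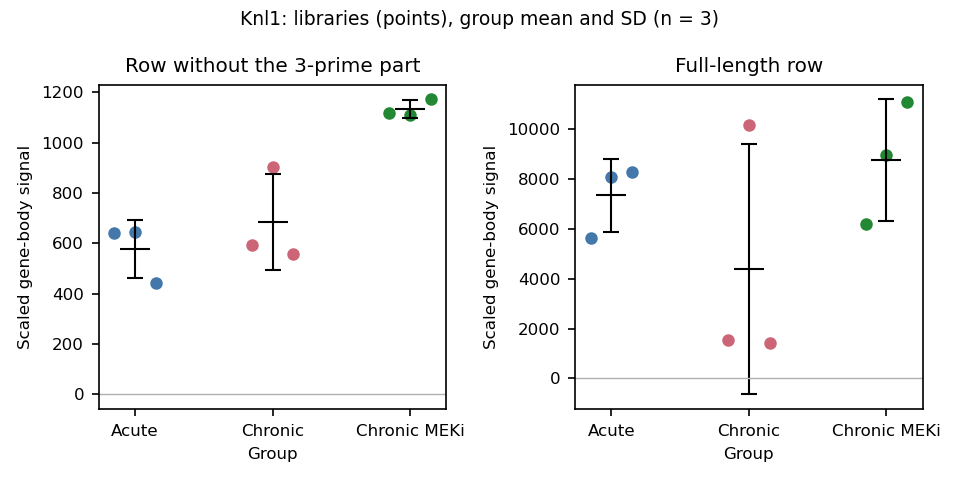
Scaled gene-body signal of Knl1 in each library (points) with group mean and SD (n = 3), for the shorter row (left) and the full-length row (right). On the left all MEK-inhibited libraries lie between 1108 and 1172 and the others at or below 903; on the right chronic replicate 2, at 10183, stands far above the other chronic libraries, at 1561 and 1413, and the SD bar reaches below 0.

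Mitotic kinesins are motor proteins that build the spindle, move chromosomes and divide the cell. Of 9 kinesin genes, 8 rose between chronic and acute libraries (all but Kif2c), 3 between MEK-inhibited and chronic ones (Kif11, Kif15 and Kifc1) and all 9 between MEK-inhibited and acute ones. Beside these stood 18%, 9.93% and 14.4% of all genes. On library totals Kif11, Kif23 and Kifc1 changed sign between chronic and acute libraries (-0.069, -0.032 and -0.025), none called. On that scale 5 of the 9 lost the call between MEK-inhibited and acute libraries, with 0.069 for Kif18a, 0.40 for Kif20a, 0.26 for Kif22, 0.21 for Kif23 and 0.48 for Kif2c (adjusted p 0.0664 to 0.789). Kifc1 (chromosome 17, 33875659 to 33890661), a minus-end motor that gathers spindle poles, had signals of 932, 1151 and 936 in acute, 1398, 1443 and 1312 in chronic and 3170.5, 2729 and 2824 in MEK-inhibited libraries. Without any overlap of groups, the MEK-inhibited libraries were about 2.09-fold above the chronic ones, with 0.46 (SE 0.12, limma adjusted p 0.00575) for chronic over acute and 1.07 (SE 0.12, limma adjusted p 3.52e-06) for MEK-inhibited over chronic libraries. Kif11 (chromosome 19, 37376403 to 37421859), the motor also called Eg5 that pushes spindle poles apart, had signals of 2348, 2558 and 2574 in acute, 3846, 3284 and 2938 in chronic and 5354, 5474 and 5871 in MEK-inhibited libraries. Here too each step separated the groups, by 0.42 (SE 0.10, limma adjusted p 0.00403) and 0.74 (SE 0.10, limma adjusted p 4.53e-05). Kif15, which can stand in for Kif11, rose at both steps, by 0.87 and 0.59 (adjusted p 1.04e-06 and 0.000190), and by 1.46 from acute to MEK-inhibited libraries, where it had the smallest adjusted p of the 43 genes (3.08e-09).

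Kif18a (chromosome 2, 109280738 to 109341747), which dampens chromosome movement at the metaphase plate, had signals of 832, 622 and 829.6 in acute, 1171, 994 and 1051 in chronic and 968, 1094 and 1040.5 in MEK-inhibited libraries, and it overlaps Mettl15 on the opposite strand. Chronic and MEK-inhibited libraries overlapped and lay above all acute ones, with 0.50 (SE 0.15, limma adjusted p 0.0140) for chronic over acute, -0.050 (SE 0.15, limma adjusted p 0.880) for MEK-inhibited over chronic and 0.45 (SE 0.15, limma adjusted p 0.0324) for MEK-inhibited over acute libraries. The first call was lost without acute replicate 2 or chronic replicate 1 (adjusted p 0.0629 and 0.0549), and on library totals it was 0.013 (limma adjusted p 0.960). The last one was lost without any of the 6 libraries compared (adjusted p 0.0619 to 0.213). The kinesins of the central spindle and midzone, Kif20a, Kif20b and Kif23, rose by 0.60, 0.57 and 0.46 between chronic and acute libraries (adjusted p 0.00684, 0.000383 and 0.0101). Without acute replicate 1 Kif20a and Kif23 were not called (adjusted p 0.0527 and 0.0598). Kif20a was at 0.11 and Kif20b at 0.083 on library totals (limma adjusted p 0.603 and 0.656). Kif20a overlaps Cdc23 on the opposite strand. Kif22, a chromosome-bound motor, rose by 0.62 (adjusted p 0.00485), and its rise of 0.65 from acute to MEK-inhibited libraries was lost without MEK-inhibited replicate 1 (adjusted p 0.0588). Its rise from acute to chronic libraries was 0.13 on library totals (limma adjusted p 0.575). None of these 4 was called between MEK-inhibited and chronic libraries, where their fold changes ran from 0.028 to 0.25. Kif2c, which takes microtubules apart at kinetochores, had a log2 fold change of 0.50 (adjusted p 0.109) between chronic and acute libraries, and without chronic replicate 2 it was called (0.79, adjusted p 0.00877). Its rise of 0.86 from acute to MEK-inhibited libraries was lost without acute replicate 1 or MEK-inhibited replicate 1 (adjusted p 0.0793 and 0.0546).

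Of 4 genes of spindle assembly and cytokinesis, Tpx2, Anln and Ect2 rose between chronic and acute libraries, Tpx2 and Anln between MEK-inhibited and chronic ones, and all 4 between MEK-inhibited and acute ones. In the same comparisons 18%, 9.93% and 14.4% of all genes rose. Tpx2 turned to -0.027 in the first comparison on library totals, not called. Anln (chromosome 9, 22332012 to 22389188), which encodes anillin of the contractile ring, had signals of 1297, 1386 and 1476 in acute, 2548, 2541 and 2407 in chronic and 3374, 3432 and 3124 in MEK-inhibited libraries. The groups did not overlap, with 0.85 (SE 0.10, limma adjusted p 2.55e-06) and 0.40 (SE 0.10, limma adjusted p 0.00773) for the 2 steps; the second was lost without MEK-inhibited replicate 1 (adjusted p 0.0792). Prc1 (chromosome 7, 80294450 to 80316259), the bundler of microtubules in the central spindle, had signals of 1697, 1766 and 2160.0 in acute, 2329, 2375 and 1886 in chronic and 2687, 2821 and 2664 in MEK-inhibited libraries, and it overlaps Rccd1 on the opposite strand. Chronic replicate 3 lay among the acute libraries, and all MEK-inhibited libraries were above the rest, with 0.23 (SE 0.12, limma adjusted p 0.152), 0.32 (SE 0.12, limma adjusted p 0.0789) and 0.55 (SE 0.12, limma adjusted p 0.00212) in the order of comparisons used above. Without chronic replicate 3 the first was called (0.34, adjusted p 0.0334), and on library totals the last was not (0.16, adjusted p 0.437). Tpx2, which activates Aurora A on the spindle, had log2 fold changes of 0.46 and 0.51 (adjusted p 0.000546 and 0.000479). Ect2, the exchange factor that sets the site of division, rose from acute to chronic libraries by 0.80 (adjusted p 1.03e-05) and had a log2 fold change of -0.045 (adjusted p 0.845) from chronic to MEK-inhibited ones. Its rise was 0.31 on library totals (limma adjusted p 0.0756).

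Top2a and Mki67 act on the chromosomes themselves. Top2a (chromosome 11, 98992943 to 99024189), the topoisomerase that untangles sister chromatids, had signals of 8422, 7952 and 8803 in acute, 7985, 7605 and 8314 in chronic and 12087, 11598 and 11976 in MEK-inhibited libraries. Acute and chronic libraries overlapped and the MEK-inhibited libraries were all higher, with -0.075 (SE 0.081, limma adjusted p 0.509) for chronic over acute, 0.58 (SE 0.081, limma adjusted p 4.29e-05) for MEK-inhibited over chronic and 0.50 (SE 0.081, limma adjusted p 0.000130) for MEK-inhibited over acute libraries. On library totals Top2a was called lower in chronic than in acute libraries (-0.56, adjusted p 0.000692), and its rise from acute to MEK-inhibited libraries was 0.12 (adjusted p 0.482). Mki67 (chromosome 7, 135689784 to 135716361) encodes Ki-67, the coat protein of mitotic chromosomes that is widely used as a marker of dividing cells. Its signals were 4594, 4776 and 5022 in acute, 5342, 5919 and 6023 in chronic and 9536, 9113 and 10093 in MEK-inhibited libraries. No groups overlapped, and the MEK-inhibited libraries stood furthest off. The step from acute to chronic libraries was the smallest of the 30 called, 0.26 (SE 0.087, limma adjusted p 0.0255), and the step from chronic to MEK-inhibited libraries was 0.73 (SE 0.087, limma adjusted p 6.01e-06). The first was lost without acute replicate 1 or chronic replicate 2 (adjusted p 0.114 and 0.0726), and turned to -0.23 on library totals, not called.

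**Figure D5:**
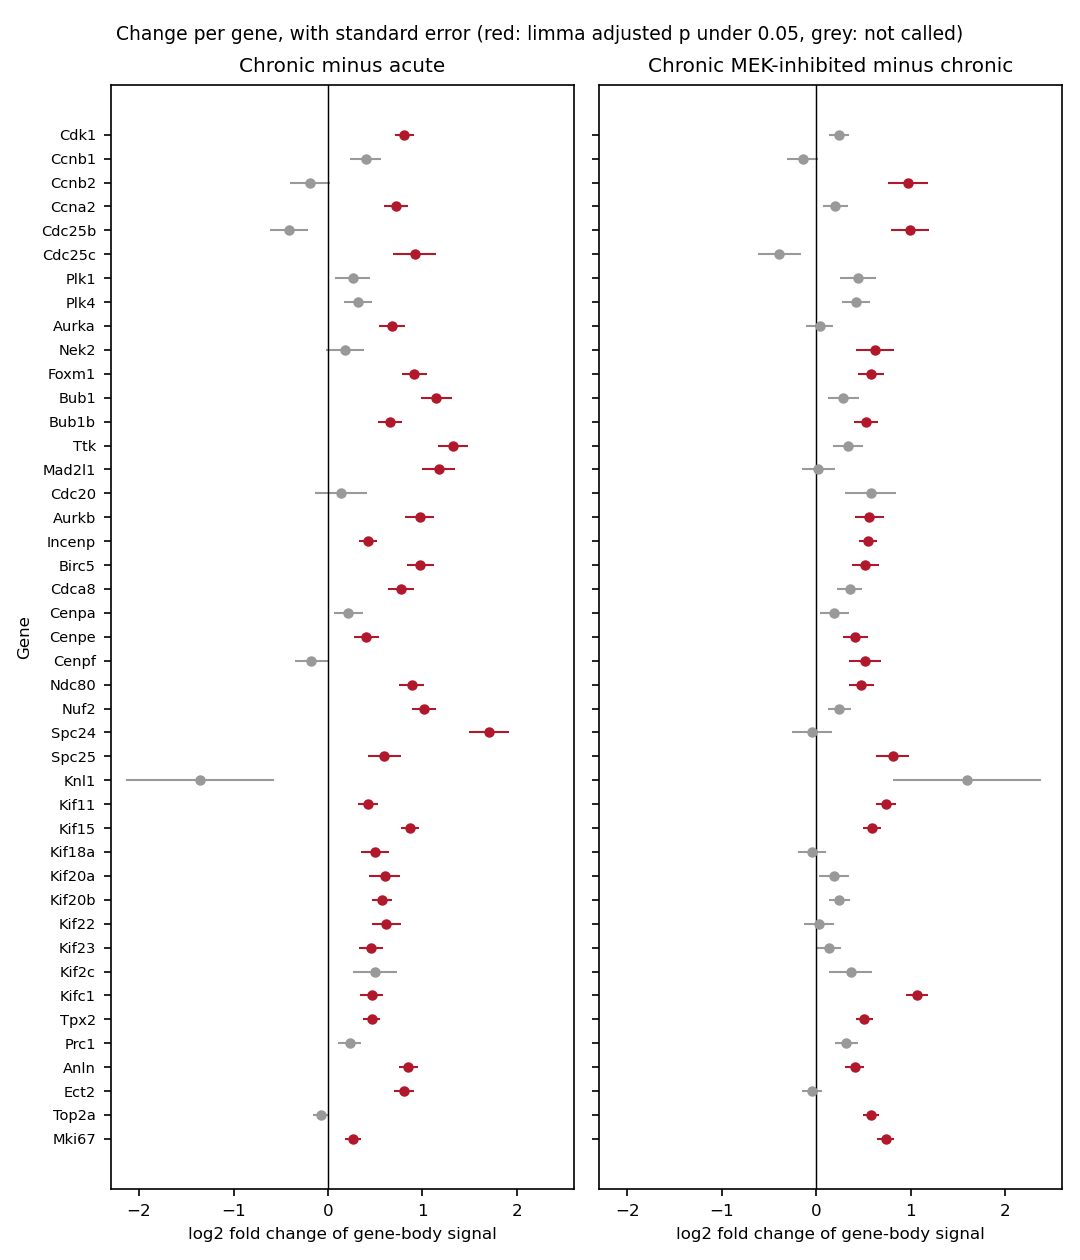
log2 fold change of gene-body signal of each member (points, with standard error), for chronic minus acute libraries (left) and MEK-inhibited minus chronic libraries (right); red marks a limma adjusted p under 0.05. On the left 30 genes are red and on the right 19, all to the right of 0 on the trimmed-mean scaling; on library totals 11 are called higher and 4 lower on the left.

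The calls sorted the genes into patterns. In the order chronic over acute, MEK-inhibited over chronic and MEK-inhibited over acute, 14 genes were called higher in all 3, among them Foxm1, Aurkb, Ndc80, Kif11 and Mki67. Another 15 were called in the first and last, among them Cdk1, Ccna2, Aurka, Bub1, Ttk, Mad2l1, Spc24, Nuf2 and Ect2. Ccnb2, Cdc25b, Nek2 and Top2a were called in the last 2 only, Kif2c, Plk1, Plk4 and Prc1 in the last only, Cdc25c in the first only and Cenpf in the second only. Ccnb1, Cdc20, Cenpa and Knl1 were called in none. A call in 1 comparison and not in another does not show that the fold changes differ, and that difference was not tested. Of the 30 calls between chronic and acute libraries, 11 held under all alternatives tried: Anln, Aurkb, Birc5, Bub1, Cdk1, Foxm1, Kif15, Mad2l1, Nuf2, Spc24 and Ttk. Of the 19 between MEK-inhibited and chronic libraries, 10 did: Ccnb2, Cdc25b, Incenp, Kif11, Kif15, Kifc1, Mki67, Spc25, Top2a and Tpx2. Of the 37 between MEK-inhibited and acute libraries 24 did, and Aurka, Ccnb2, Cdc25b, Kif18a, Kif20a, Kif22, Kif23, Kif2c, Nek2, Plk1, Plk4, Prc1 and Top2a did not; these 13 include all 4 called in that comparison only.

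Related genes were compared as a log2 ratio within each library, which no scaling of libraries changes except through the pseudocount. The 8 pairs were chosen after the values were seen and gave 24 tests; the smallest two-sided exact permutation p that 3 against 3 libraries allow is 0.1, which is 0.2 after Benjamini-Hochberg adjustment over the 24, so none could pass. The ratio of Ccnb2 to Ccnb1 was -1.58 ± 0.50 in acute libraries (SD, n = 3), -2.17 ± 0.29 in chronic and -1.06 ± 0.14 in MEK-inhibited libraries. It was 1.12 higher in MEK-inhibited than in chronic libraries, without overlap. That of Cdc25b to Cdc25c was 1.23 ± 0.057 in acute, -0.10 ± 0.16 in chronic and 1.28 ± 0.23 in MEK-inhibited libraries. The chronic libraries stood apart from both other groups, by -1.33 against acute ones, and acute and MEK-inhibited libraries overlapped.

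Within the NDC80 complex, the ratio of Spc25 to Spc24 was -1.11 in chronic minus acute libraries and 0.86 in MEK-inhibited minus chronic ones, without overlap in either. The ratio of Aurkb to Aurka was 0.29 and 0.53 in the same comparisons, again without overlap, so each group lay above the one before. The ratio of Bub1b to Bub1 was -0.49 and that of Cenpf to Cenpe -0.58 in chronic minus acute libraries, both without overlap. The ratios of Kif20b to Kif20a and of Plk4 to Plk1 overlapped in every comparison, with differences between -0.027 and 0.061.

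Levels were compared between genes as scaled signal per kb of annotated span, although the exact region counted is not stated. By the mean over all 9 libraries Top2a was highest, at 269 ± 13.6, 255 ± 11.4 and 380.4 ± 8.20 (SD, n = 3) in acute, chronic and MEK-inhibited libraries. It was followed by Ccna2, at 181 ± 9.60, 299 ± 34.2 and 346 ± 65.6, Mki67, at 180.5 ± 8.07, 217 ± 13.8 and 360.5 ± 18.5, and Cdk1, at 111 ± 5.05, 195 ± 22.6 and 230.2 ± 12.4. This order did not hold in every group, and Cdk1 was passed by others: in acute libraries Cenpa, Knl1 and Ccnb1 had higher means, and in MEK-inhibited libraries Birc5 and Aurkb did. By the same mean the lowest were Cenpf, at 14.96 ± 2.85, 13.1 ± 0.675 and 18.9 ± 2.68, Kif18a, at 12.5 ± 1.98, 17.6 ± 1.48 and 17.0 ± 1.03, and Cdc25c, at 12.6 ± 2.57, 23.8 ± 3.58 and 18.1 ± 2.58. In acute libraries alone Ttk had the lowest mean, at 11.8. In chronic libraries Ccna2 was above Top2a, with means further apart than the SD of either, while in MEK-inhibited libraries the SD of Ccna2 was larger than its distance from Top2a and from Mki67. Across the 43 genes the log2 fold change had a Pearson correlation with log2 span of -0.15 between chronic and acute, 0.12 between MEK-inhibited and chronic and -0.079 between MEK-inhibited and acute libraries; genes share the libraries, so these are descriptions. The median coefficient of variation within a group was 11.4% in acute, 10.4% in chronic and 7.99% in MEK-inhibited libraries, and 6 members were above 25% in chronic libraries against 1 in each other group. Among the members, 10 overlap another annotated gene on the same strand, 15 on the opposite strand and 20 neither, and values of overlapping genes are uncertain.

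In the pause region, the stretch near the transcription start, fewer members were called, and all of these had also risen in the gene body in the same comparison. Of 39 members that passed the filter there (all but Cdc25b, Cdc25c, Kif22 and Kif23), 6 rose between chronic and acute libraries (5.37% of 7678 genes), 1 between MEK-inhibited and chronic ones (1.56%) and 12 between MEK-inhibited and acute ones (3.44%). None fell, beside 5.35%, 1.43% and 2.51% of all genes; at an unadjusted p under 0.05 the limma counts were 11 higher and 1 lower, 8 and 0, and 19 and 0. Between chronic and acute libraries 0 members were called higher and 1 lower on library totals. The shares of all genes given here are those of the trimmed-mean scaling, and those on library totals are not given. Bub1 had pause-region signals of 25.6, 25.5 and 19.8 in acute, 97.3, 88.7 and 86.5 in chronic and 97.5, 99.7 and 106 in MEK-inhibited libraries. Chronic libraries were all far above the acute ones, a log2 difference of 1.75 (SE 0.40, limma adjusted p 0.00337). The other rises between chronic and acute libraries were those of Spc25 at 1.52, Mad2l1 at 1.37, Spc24 at 1.22, Aurkb at 0.91 and Mki67 at 0.70 (limma adjusted p 0.0147, 0.00163, 0.0260, 0.0408 and 0.0427). The groups of Mki67 overlapped.

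Kifc1 was the 1 member called between MEK-inhibited and chronic libraries in the pause region, with signals of 116, 230.3 and 82.0 in acute, 137, 121 and 132 in chronic and 296, 243 and 357 in MEK-inhibited libraries. The MEK-inhibited libraries were above the others, and acute replicate 2 was the highest of the rest, with a log2 difference of 1.15 (SE 0.31, limma adjusted p 0.0329); no member was called when any library of these groups was left out. The 12 genes that rose between MEK-inhibited and acute libraries were Ttk, Bub1, Aurkb, Spc25, Bub1b, Spc24, Mki67, Mad2l1, Kif15, Kifc1, Birc5 and Kif11, from 1.998 for Ttk to 1.05 for Kif11. The median log2 fold changes of the 39 members were 0.48, 0.22 and 0.81 in the pause region and 0.57, 0.42 and 0.97 in the gene body. The median standard error was 0.39 in the pause region and 0.14 in the gene body. Pausing, taken as pause-region minus gene-body log2(signal + 5), had no member called by limma in any comparison and no gene called among 7413 tested (0%). The smallest adjusted p of a member was 0.443, 0.886 and 0.518, and at an unadjusted p under 0.05 the members higher and lower numbered 2 and 2, 0 and 1, and 0 and 6.

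Other genes of mitosis, a list of 100 symbols of which 99 were tested, were counted in the same fit. Between chronic and acute libraries 69 rose and 1 fell, with a median log2 fold change of 0.61. The largest rises were those of Melk, a kinase of dividing cells, at 2.13, and Cenpm, of the constitutive centromere, at 1.9996; Depdc1b fell by 0.56. From chronic to MEK-inhibited libraries 26 rose and 2 fell (median 0.21), with Depdc1b at 1.187 and Gtse1 at 1.01 on top, and the checkpoint genes Zwint and Bub3 lower at -0.33 and -0.33. Between MEK-inhibited and acute libraries 78 rose and none fell (median 0.88), led by Cenpm and Gtse1 at 2.41 and 2.26. On library totals the counts higher and lower were 32 and 19, 27 and 0, and 55 and 5 in the order of comparisons above, with medians of 0.12, 0.31 and 0.50. The shares of all genes higher and lower on that scale were 6.87% and 42.9%, 11.1% and 4.65%, and 5.99% and 31.1%. By role, between chronic and acute libraries 6 of 18 genes of the anaphase-promoting complex and mitotic exit rose, as did 12 of 16 of condensin and cohesin, 12 of 16 of the constitutive centromere, 11 of 14 of the other kinetochore and checkpoint genes, 21 of 25 of the other spindle and cytokinesis genes and 7 of 10 other regulators of entry. Between MEK-inhibited and chronic libraries the counts were 2, 5, 1, 1, 15 and 2 in that order, beside 18% and 9.93% of all genes that rose in these comparisons.

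For genes of DNA replication, the phase before mitosis, the list of 41 had 36 that rose and none that fell between chronic and acute libraries (median 0.87), led by Ccne2, the cyclin E2 gene, at 2.21 and Rrm2, of ribonucleotide reductase, at 2.01. Between MEK-inhibited and chronic libraries 8 rose and 3 fell (median 0.13), beside 9.93% and 7.65% of all genes, so that the fallers were no larger a share than over all genes. E2f2 and Ccne1 were highest at 0.82 and 0.65, and Rfc3, Orc1 and Ccne2 were lower at -0.68, -0.39 and -0.38. All 41 rose between MEK-inhibited and acute libraries (median 1.03), led by Rrm2 and E2f2 at 2.27 and 2.06. On library totals the counts were 23 and 4, 10 and 1, and 28 and 0 (medians 0.38, 0.24 and 0.64), and with median-of-ratios scaling the count between MEK-inhibited and chronic libraries was 3 higher and 4 lower, with a median of 0.10. The median over the list in single libraries ran from -0.67 to -0.60 in acute, 0.19 to 0.27 in chronic and 0.31 to 0.43 in MEK-inhibited libraries. For the mitosis and kinetochore genes the same medians were -0.59 to -0.40, 0.072 to 0.10 and 0.40 to 0.49. The difference between the lists was not tested.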

How the data were processed

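The deposited tables give, for 9 libraries, the signal of each transcript row in its gene body and in its pause region. The authors' values are signal with 1 scale factor per library: within a library they were whole multiples of a step of 0.764 to 1.06, shared by both tables, and a step is not known to be a read, so the depth is unknown and no count test was run. The submitters' processing notes name FastQC 0.12.0, Trim Galore 0.6.10, STAR 2.7.0a, SAMtools 1.19.2, deepTools 0.1.9, R 4.1.2 and the build mm10, with no role or order; the regions counted and the use of strand are not given in the sources used here. How reads of overlapping genes or of several places were treated could change single values.

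Of 118482 rows, 117346 matched the GENCODE M21 annotation with version and 383 without, and 753 did not. Each gene was represented by the row of largest mean gene-body signal. Scale factors came from a trimmed mean of log ratios without weights (30% of ratios and 5% of levels trimmed). Rows at 50 or more in 3 or more libraries were fitted with limma 3.58.1 in R 4.3.3 as log2(signal + 5), with 1 mean per group over all 9 libraries, a mean-variance trend and robust moderation, and p-values were Benjamini-Hochberg adjusted over all rows tested. The gene-body model was tested on data simulated for chronic over acute libraries, where changes of weak genes were recovered less often than those of strong ones. The recovery first required was not reached, and the requirement was then limited to strong genes. Pause-region and pausing fits were not tested in this way. Python 3.11.15, pandas 2.3.3, numpy 2.4.6, scipy 1.17.1 and matplotlib 3.10.9 did the rest.

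The members and lists were chosen with earlier results of these data known. Values per library are given for a core set of Cdk1, Ccnb1, Plk1, Foxm1, Bub1b, Cdc20, Aurkb, Cenpe, Ndc80, Kif11, Prc1, Top2a and Mki67, and for the members with the 3 largest and 3 smallest fold changes among those called in each direction in each gene-body comparison. Of the other lists, the 2 largest called rises and falls in each comparison were named. Cdc25c, Knl1, the third called fall of the DNA replication genes (Ccne2) and the pause-region values were printed after their values were seen. Alternatives were other scalings, pseudocounts, filters and transcript rows, the 2 groups compared only, plain moderation, a replicate block, and leaving out each library.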

Additional observations from a re-analysis of the deposited data

How the results depend on the processing

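Between chronic and acute libraries the members' median gene-body log2 fold change of 0.57 became 0.099 on the deposited scale, 0.083 on library totals and 0.41 on totals without the ribosomal RNA-like rows. The 30 members higher became 12 and 11 on the first 2 of these, where 7.11% and 6.87% of all genes were higher. The 0 lower became 4, 4 and 1, where 42.1%, 42.9% and 23.6% of all genes were lower. On library totals and on the deposited scale the change reversed, without a call, in Kif11 (-0.069 and -0.053), Incenp (-0.066 and -0.050), Tpx2 (-0.027 and -0.0098), Mki67 (-0.23 and -0.21), Kif23 (-0.032 and -0.015), Cenpe (-0.083 and -0.066) and Kifc1 (-0.025 and -0.0081). Between MEK-inhibited and acute libraries the median of 0.86 became 0.52, 0.48 and 0.69 under the same scalings. The 37 members higher became 24 on library totals, where 5.99% of all genes were higher and 31.1% lower. Between MEK-inhibited and chronic libraries the median of 0.41 became 0.54 on the deposited scale, 0.52 on library totals and 0.34 without a filter, where 19 members higher became 10. In the pause region the 6 members higher between chronic and acute libraries became 3 with only the 2 groups compared, on the deposited scale and with plain moderation, 0 on library totals, where 1 was lower, and 2 without a filter. The 12 higher between MEK-inhibited and acute libraries became 4 on library totals and with plain moderation and 5 without a filter, and the 1 higher between MEK-inhibited and chronic libraries became 2 with only the 2 groups compared, with the filter at 200 and on library totals, and 0 without a filter, with plain moderation and on totals without the ribosomal RNA-like rows. With a pseudocount of 50, 1 member had lower pausing in MEK-inhibited than in acute libraries. The cause of these changes was not tested. For the counts without a filter and those of the pause region the shares over all genes are not given, so they describe the members alone.

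Leaving out each library in turn gave, between chronic and acute libraries, medians of 0.51 to 0.62, 26 to 31 members higher and 0 to 1 lower. Between MEK-inhibited and chronic libraries it gave medians of 0.32 to 0.46 and 10 to 19 higher, with 10 and 0.32 without MEK-inhibited replicate 1. Between MEK-inhibited and acute libraries it gave 0.79 to 0.91 and 31 to 38 higher. In the pause region the members higher ran from 2 to 6, 0 to 1 and 6 to 12, with 0 to 1 lower in the first comparison, and pausing stayed at 0. Whether the replicate numbers pair the libraries is not known. Same-numbered libraries of different groups had correlations of -0.53 to 0.098 in their deviations from group means, and 1 of 9 correlated best with its own number. Between acute and chronic libraries alone, same-numbered ones had correlations of 0.092, 0.098 and 0.075, and differently numbered ones -0.077 to -0.012. With the replicate block, 30, 20 and 39 members were higher in the gene body and 7, 2 and 13 in the pause region, in the same order of comparisons. The shares over all genes with the block or with a library left out are not given, so these counts describe the members alone. Depth in reads is unknown, which limits what can be said of weak genes, and the larger standard errors of the pause region limit its calls.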
